A study of Mus musculus with 10 samples.

Results

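Chemokines are small secreted proteins that guide the movement of cells, and the chemokine receptors are the surface proteins that read them. This family was examined in RNA sequencing of the aorta of mice, the large artery that carries blood from the heart. A gene was taken as a member if its symbol begins with Cx3c, begins with Ccl or Cxcl and a number, or is a numbered Ccr, Cxcr or Ackr receptor. By that name rule, which uses no measured value, 60 rows of the 35667 genes in the files were members. They carry 57 symbols, because Ccl19 has 2 rows and Ccl27a has 3. Of the 60 rows, 40 are ligands (27 CC ligands and 13 CXC or CX3C ligands) and 20 are receptors (16 signalling and 4 atypical).

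The series holds 10 libraries from the aorta of C57BL/6 mice aged 12 weeks. By their titles, 5 are knockout (KO) for Ovgp1, the gene of oviductal glycoprotein 1, and 5 are wild type (WT), and no treatment separates the groups in the labels. The genotype entries differ from the titles: that of KO replicate 1 reads Ovgp1, but replicate 2 reads Ovgp2, replicate 3 reads Ovgp3, replicate 4 reads Ovgp4 and replicate 5 reads Ovgp5. The labels used here do not say how the knockout was made. Nor do they say that each library stands for its own animal, so p-values measure the spread between these libraries, which may be technical.

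CC and CXC chemokines are named for the spacing of their first cysteines, and CX3C for a wider spacing. Signalling receptors couple to inhibitory G proteins and steer leukocytes, whereas atypical receptors (Ackr genes) bind chemokines without that coupling and remove or carry them. In a vessel wall, ligands come from smooth muscle, fibroblasts, endothelium and resident macrophages. Cxcl12 binds Cxcr4 and the scavenger Ackr3. Cx3cl1, read by Cx3cr1, and Cxcl16, read by Cxcr6, are the chemokines anchored in the membrane.

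Sequences upstream of the gene start are shown for the members whose values carry the comparison and for which the RefSeq promoter table (GRCm38.p6) had an entry: Cxcl12, Cx3cl1, Ackr3 and Cx3cr1, which were called higher in the libraries labelled KO, and Ccl6 and Ccl9, which divided the WT libraries. Each is 250 bases ending just before the RefSeq gene start, read 5′ to 3′ on the strand of the gene. By the GENCODE positions given below, the Cx3cr1 window and most of the Cx3cl1 window lie inside the gene. Capitals mark matches, on either strand, to the NF-kappaB motif, the GC box GGGCGG and the TATA motif TATAAA.
Cxcl12 (chr6:117168285-117168534, plus strand): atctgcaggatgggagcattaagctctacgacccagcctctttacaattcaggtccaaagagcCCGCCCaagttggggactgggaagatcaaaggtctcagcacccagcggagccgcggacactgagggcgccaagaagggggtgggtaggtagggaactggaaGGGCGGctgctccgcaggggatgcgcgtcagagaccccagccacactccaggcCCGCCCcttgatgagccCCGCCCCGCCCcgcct
Cx3cl1 (chr8:94771930-94772179, plus strand): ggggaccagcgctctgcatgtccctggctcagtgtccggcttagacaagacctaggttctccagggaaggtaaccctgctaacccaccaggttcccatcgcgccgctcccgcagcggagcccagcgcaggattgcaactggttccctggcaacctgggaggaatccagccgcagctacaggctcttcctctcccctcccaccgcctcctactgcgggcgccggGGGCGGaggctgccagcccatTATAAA
Ackr3 (chr1:90203730-90203979, plus strand): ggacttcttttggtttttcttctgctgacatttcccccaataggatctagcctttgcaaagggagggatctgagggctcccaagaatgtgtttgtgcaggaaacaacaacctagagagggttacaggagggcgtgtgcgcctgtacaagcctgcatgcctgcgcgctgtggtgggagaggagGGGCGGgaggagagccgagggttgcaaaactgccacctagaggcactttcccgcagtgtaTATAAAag
Cx3cr1 (chr9:120068297-120068546, minus strand): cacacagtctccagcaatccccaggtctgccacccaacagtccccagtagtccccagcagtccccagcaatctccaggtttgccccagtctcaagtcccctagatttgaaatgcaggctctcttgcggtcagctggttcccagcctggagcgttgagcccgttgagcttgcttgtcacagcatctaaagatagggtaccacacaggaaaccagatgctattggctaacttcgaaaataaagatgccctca
Ccl6 (chr11:83593088-83593337, minus strand): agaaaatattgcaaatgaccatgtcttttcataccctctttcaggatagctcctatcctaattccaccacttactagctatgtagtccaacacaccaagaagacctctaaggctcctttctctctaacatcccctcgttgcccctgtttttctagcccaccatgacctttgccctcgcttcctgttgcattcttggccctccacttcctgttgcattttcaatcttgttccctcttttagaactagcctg
Ccl9 (chr11:83578637-83578886, minus strand): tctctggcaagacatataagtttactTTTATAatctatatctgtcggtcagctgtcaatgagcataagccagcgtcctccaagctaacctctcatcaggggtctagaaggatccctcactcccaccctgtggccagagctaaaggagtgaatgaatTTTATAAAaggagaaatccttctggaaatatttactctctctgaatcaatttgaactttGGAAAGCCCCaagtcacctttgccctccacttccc

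The windows of Cxcl12 and Cx3cl1 were rich in G and C, at 64.4% and 64.8%, with 14 CpG dinucleotides each. That of Ackr3 had 54.0% and 7 CpG, and that of Cx3cr1 had 53.6% and 4. The windows of Ccl6 and Ccl9 had 45.2% and 43.6%, with 2 CpG each. The median over 32851 mouse promoter windows was 52.4% and 6 CpG, and over the 46 windows found for 39 of the 57 member symbols it was 49.8% and 3.5. GC boxes began at positions -187, -86, -33, -16 and -11 from the gene start of Cxcl12, at -27 of Cx3cl1 and at -68 of Ackr3. TATAAA began at -6 of Cx3cl1 and -8 of Ackr3. The Ccl9 window held an NF-kappaB match at -35, an AP-1 match (TGANTCA) at -53 and TATAAA at -224, -94 and -92, the last 2 overlapping each other on opposite strands. None of the 5 motifs searched was found in the Cx3cr1 and Ccl6 windows. The longest run shared by the Ccl6 and Ccl9 windows was 13 bases, gccctccacttcc, which began at -55 in Ccl6 and -14 in Ccl9.

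Over all member windows, an NF-kappaB match stood in 10 of 46 (21.7%, against 7.25% of all windows) and TATAAA in 12 (26.1%, against 12.4%). AP-1 matches stood in 6 (13.0%, against 6.75%). The GC box was found in 7 (15.2%, against 32.7%) and the interferon-gamma element TTCNNNGAA in 3 (6.52%, against 7.02%). NF-kappaB matches belonged to Cxcl1, Cxcl2, Cxcl3, Cxcl10, Ccl1, Ccl9, Ccr1, Ccr3, Ccr6 and Ackr2, of which only Cxcl1, Ccl9, Ccr1 and Ackr2 had enough counts to be tested. A match describes letters only. Windows of neighbouring family members share ancestry, so they are not independent.

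Total counts ran from 21242030 to 26694590 per library, and 15710 genes passed the filter on low counts. The libraries labelled KO were close to copies of each other. A chi-square of gene counts, divided by its degrees of freedom and near 1 for counting error alone, was 1.77 to 3.25 for their 10 pairs and 11.0 to 154 for the 10 WT pairs. Ovgp1 itself went against the labels, with 19.4 ± 1.66 CPM (library-scaled counts; SD, n = 5) under the KO label and 3.70 ± 1.1 under WT (log2 difference 2.40, adjusted p = 2.84e-05, and 0.217 with KO as 1 sample). Every direction below follows the labels. Because of the near-copies, the libraries were compared in 2 ways: as 5 against 5, and with the KO counts summed to 1 sample, so that the spread comes from the 5 WT libraries only. Mitochondrial genes took 16.2% of counts in WT replicate 1 and 13.2% in WT replicate 3, against 6.75% to 9.59% among the remaining WT libraries and 7.61% to 7.88% among those labelled KO. Smooth muscle markers, which define the tissue, were abundant in all libraries: the 6 marker genes summed to 35070 to 35736 CPM in KO and 25210 to 38742 in WT.

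Of the 60 member rows, 32 had enough counts to be tested: 13 of 27 CC ligands, 7 of 13 CXC or CX3C ligands, 8 of 16 signalling receptors and all 4 atypical receptors. A gene could pass the filter through 1 group alone, so counts over the tested members describe those members only. In the 5 against 5 comparison, 5 of the 32 were called higher at an adjusted p up to 0.05, where 6.84% of all tested genes were. These were Cxcl12, Cx3cl1, Cxcl16, Ackr3 and Cx3cr1, and for each of them all 5 libraries labelled KO lay above all 5 WT libraries, as was so for 7.38% of tested genes. None was called lower by edgeR (7.43% of tested genes were). An unadjusted p under 0.05 in edgeR was reached by 12 members in the higher direction and 3 in the lower. Of all 15710 tested genes, 2077 reached it higher and 2552 lower. DESeq2 called 1 member lower and limma-voom 7. In either direction, DESeq2 called 8 members and 18.9% of all tested genes. The limma-voom fit called 19 members and 41.2% of all tested genes. No member lay below all WT libraries (7.22% of tested genes did). With KO as 1 sample, none of the 32 was called, where 0.0446% of tested genes (7 genes) were, and DESeq2 in that design also called none. An unadjusted p under 0.05 was then reached by 3 of 32, Cxcl12, Cx3cl1 and Ackr3, against 3.72% of all tested genes. The median log2 difference was 0.36 over the tested members, with 22 above zero and 10 below, and -0.02 over all tested genes. In whole tissue, a change in the number of cells of a type and a change in RNA per cell cannot be told apart.

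**Figure D1:**
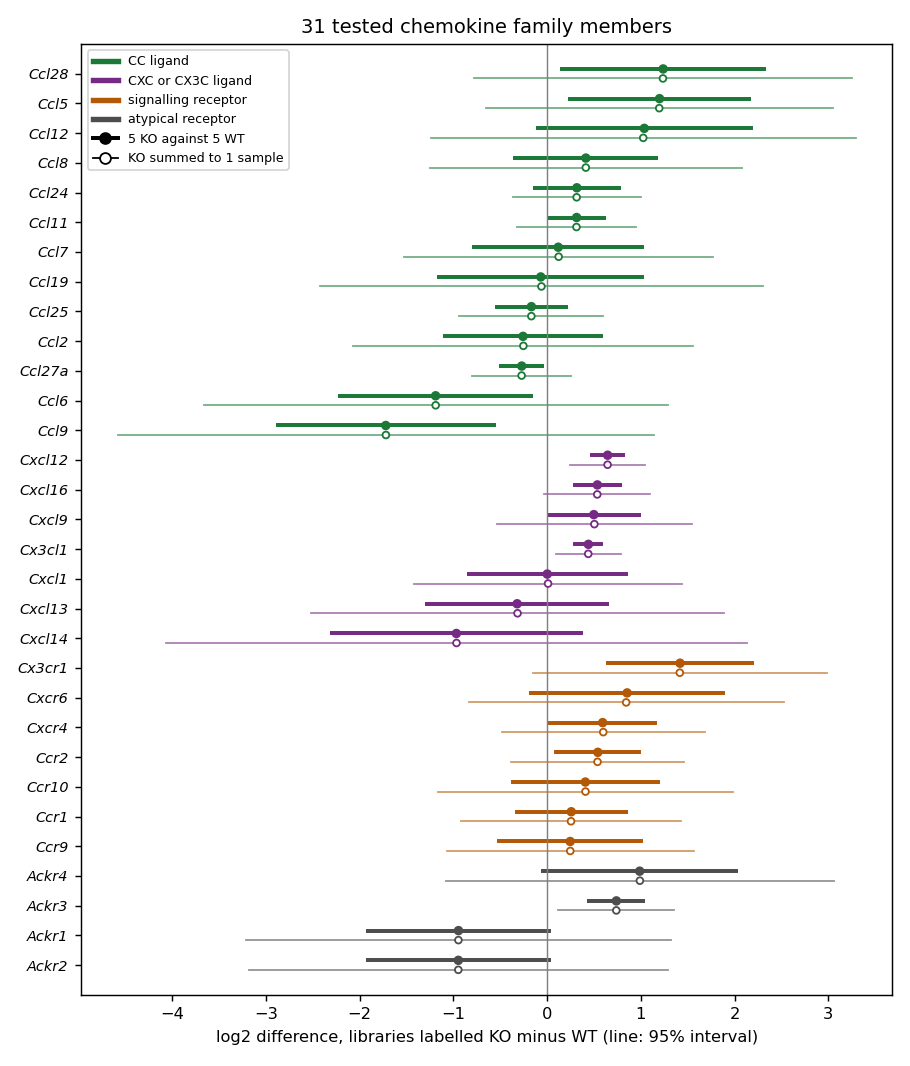
Log2 difference of 31 of the 32 tested members, libraries labelled KO minus WT, by role and with 95% intervals. Filled points are the 5 against 5 comparison and open points the comparison with KO summed to 1 sample. The point estimates nearly coincide, and with KO as 1 sample the interval of 3 of the members drawn (Cxcl12, Cx3cl1 and Ackr3) stays on one side of 0.

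The CXC and CX3C ligands gave 3 of the 5 calls, and the most abundant of them was Cxcl12, the chemokine that retains CXCR4-bearing leukocytes and progenitors. Its level per length, in CPM per kilobase of exon, was 26.3 in KO and 16.8 in WT, the greatest of the family in the libraries labelled KO and below Ccl6 and Ccl9 in WT.

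Cxcl12 (ENSMUSG00000061353) lies on chromosome 6 at 117168535 to 117181367 (GRCm38, plus strand, protein coding). It had 217, 216, 207, 218 and 215 CPM in KO replicates 1 to 5 and 123, 157, 154, 121 and 130 CPM in WT replicates 1 to 5. The groups did not overlap, and the WT libraries were the more spread. The mean was 215 ± 4.35 CPM against 137 ± 17.3 (SD, n = 5 each), a fold of 1.57 (95% interval 1.39 to 1.76; log2 0.65, SE 0.08, adjusted p = 0.000458). With KO as 1 sample the fold was 1.56 (1.18 to 2.07), with an unadjusted p of 0.00644 and an adjusted p of 0.995.

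Cx3cl1 (fractalkine; ENSMUSG00000031778, chromosome 8, 94772009 to 94782427, plus strand, protein coding) is made by endothelium and smooth muscle and holds or attracts cells with Cx3cr1. Its values were 27.4, 27.4, 27.0, 26 and 25.9 CPM in KO and 17.7, 19.2, 21.8, 18.9 and 21 CPM in WT. The groups did not overlap, and the WT libraries spanned more than the libraries labelled KO. The fold was 1.36 (95% interval 1.23 to 1.5; log2 0.44, SE 0.06, adjusted p = 0.00145), and with KO as 1 sample 1.36 (1.07 to 1.73; adjusted p = 0.999).

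Cxcl16 (ENSMUSG00000018920, chromosome 11, 70453983 to 70459984, minus strand, protein coding) acts as a scavenger receptor for oxidised lipoprotein as well as a chemokine. It had 9.45, 9.93, 9.55, 9.72 and 8.36 CPM in KO and 7.61, 6.63, 7.24, 5.60 and 5.34 CPM in WT. The gap between the lowest KO and the highest WT library was small beside the spread within WT. The fold was 1.45 (95% interval 1.23 to 1.72; log2 0.54, SE 0.11, adjusted p = 0.00961), and with KO as 1 sample 1.45 (0.978 to 2.15; adjusted p = 0.999). Of its 3021 exon bases, 552 overlap Zmynd15 on the opposite strand, and the strand setting of the counting is not given in the sources used here. Zmynd15 had 44 to 69 counts in KO and 32 to 48 in WT (log2 0.28, adjusted p = 0.350), against 226 to 266 and 115 to 168 counts of Cxcl16.

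**Figure D2:**
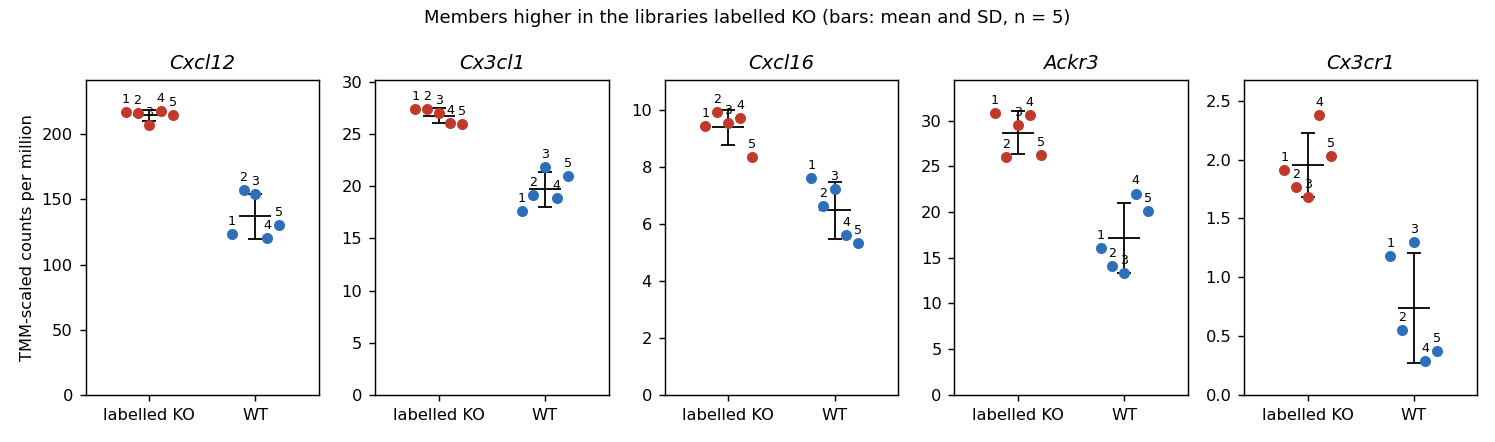
TMM-scaled CPM of the 5 members called higher, one point per library with its replicate number, and the mean and SD of 5. In each panel the 5 libraries labelled KO sit above the 5 WT libraries, with Cxcl12 at 207 to 218 CPM against 121 to 157.

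The other CXC ligands were not called by edgeR in the 5 against 5 comparison, while limma-voom called Cxcl13 and Cxcl14 lower (adjusted p = 0.0323 and 0.0261). Cxcl9, an interferon-induced ligand of Cxcr3, had 1.12 to 1.52 CPM in KO and 0.549 to 1.36 in WT (log2 0.50, adjusted p = 0.156). Cxcl1, a neutrophil attractant, had 0.439 to 1.37 CPM in KO and 0.399 to 1.11 in WT (log2 0.00, adjusted p = 0.997). Cxcl13, the B cell attractant read by Cxcr5, had 1.56 to 2.47 CPM in KO and 0.544 to 4.50 in WT (log2 -0.32). For these 3 genes the WT range overlapped the KO range. Cxcl14, a homeostatic chemokine, had 0.940 to 1.52 CPM in KO and 0.590, 2.61, 0.2, 4.69 and 3.62 CPM in WT replicates 1 to 5 (log2 -0.97, SE 0.60, adjusted p = 0.317). Without WT replicates 1 and 3 it was called lower (adjusted p = 0.000336), but these were its lowest WT libraries, so that call follows from leaving them out.

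No CC ligand was called by edgeR in either direction, and the median log2 difference over the 13 tested was 0.12. An unadjusted p under 0.05 was reached by 6, 3 in each direction. Of all 15710 tested genes, 2077 reached it higher and 2552 lower. DESeq2 called Ccl5 higher and Ccl9 lower. With limma-voom, which called 41.2% of all tested genes, Ccl5, Ccl8, Ccl11, Ccl12 and Ccl28 were called higher and Ccl2, Ccl6 and Ccl9 lower. The most abundant per length over the 10 libraries were Ccl6, Ccl11 and Ccl9. Ccl6 and Ccl9 are neighbouring rodent genes of chromosome 11 that are made by myeloid cells and act through Ccr1. Ccl9 (ENSMUSG00000019122) spans 83572919 to 83578636 and Ccl6 (ENSMUSG00000018927) spans 83587882 to 83593087, both protein coding and on the minus strand, 9245 bases apart.

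Ccl6 had 24.0, 25.5, 25, 24.2 and 25 CPM in KO and 16.1, 86.8, 17.4, 85.8 and 75.5 CPM in WT replicates 1 to 5. Ccl9 had 17.2, 18.3, 17.7, 18.1 and 19.3 CPM in KO and 14.7, 97.3, 14.9, 90.7 and 80.6 CPM in WT replicates 1 to 5. For both genes WT replicates 2, 4 and 5 were far above the libraries labelled KO, and WT replicates 1 and 3 were below them. The fold of Ccl9 was 0.304 (95% interval 0.137 to 0.673; log2 -1.72, SE 0.52, adjusted p = 0.0512). That of Ccl6 was 0.439 (0.217 to 0.889; log2 -1.19, SE 0.46, adjusted p = 0.113). With KO as 1 sample the intervals were 0.0420 to 2.2 and 0.0791 to 2.44. Leaving out WT replicates 1 and 3 made both calls lower, with adjusted p of 4.02e-09 for Ccl9 and 6.88e-09 for Ccl6 in the 5 against 3 comparison and 0.0375 and 0.0498 with KO as 1 sample. Leaving out WT replicate 1 alone gave 0.0170 and 0.0346, and WT replicate 3 alone 0.0157 and 0.0367. These libraries were the lowest WT libraries for both genes, so the smaller p-values follow from which libraries were left out. They are no added support for a lower level. Without both libraries, 27.2% of all genes were called in the 5 against 3 comparison. With all 10 libraries kept, other settings also called Ccl9 lower. Its adjusted p was 0.0421 in edgeR with a mean of at least 1 CPM, 0.0154 with DESeq2 and 0.00189 with limma-voom. For Ccl6 these were 0.0968, 0.0828 and 0.00352, so only limma-voom called it.

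Together these 2 genes made up 10.1% to 11.1% of all member counts in the libraries labelled KO. They made up 11.6%, 39.4%, 10.6%, 41.0% and 37.6% in WT replicates 1 to 5. Cxcl12 made up 51.6% to 53.9% in KO and 46.7%, 33.7%, 50.4%, 28.0% and 31.4% in WT. All members together took 0.0409% to 0.0420% of the counts in KO and 0.0239%, 0.0472%, 0.0288%, 0.0432% and 0.0416% in WT.

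**Figure D3:**
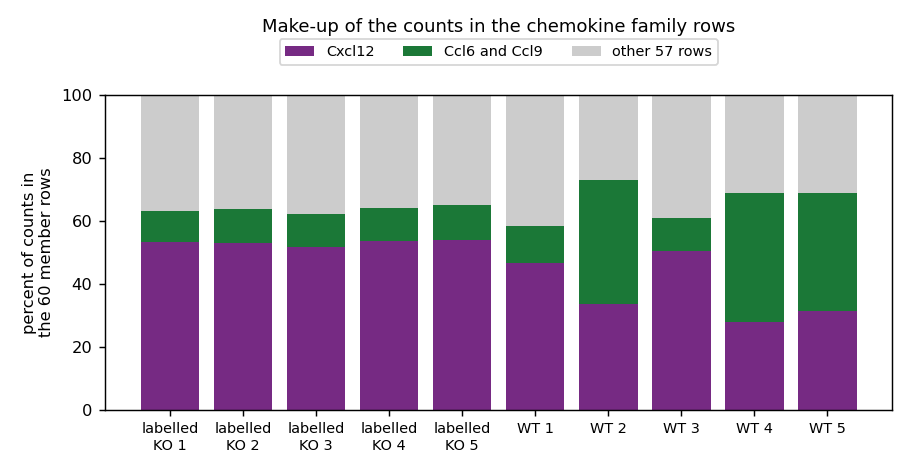
Share of each library's member counts (percent, of raw counts in the 60 rows) that came from Cxcl12, from Ccl6 and Ccl9 together, and from the other 57 rows. The Ccl6 and Ccl9 share lies between 37.6% and 41.0% for WT replicates 2, 4 and 5, and between 10.1% and 11.6% for the remaining 7 libraries.

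Ccl11 (eotaxin; ENSMUSG00000020676), the eosinophil attractant read by Ccr3, had 18.9, 21.3, 18.7, 17 and 16.7 CPM in KO and 11.1, 20.01, 14.9, 13.8 and 14.4 CPM in WT. WT replicate 2 lay within the KO range and the other 4 below it (log2 0.32, SE 0.13, adjusted p = 0.138). Without WT replicate 2, its highest WT library, Ccl11 was called higher (adjusted p = 0.0116), which follows from that choice. Ccl27a, a skin-homing ligand of Ccr10, had 23.5 to 25.9 CPM in KO and 24.0 to 35.5 in WT (log2 -0.27, adjusted p = 0.0946). Without WT replicate 4, its lowest WT library, Ccl27a was called lower (adjusted p = 0.0325), which follows from that choice. The copies of Ccl27a on unplaced scaffolds may share its reads. Their sequences were not compared, so how reads were split among them is uncertain.

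In the 5 against 5 comparison edgeR called none of the monocyte attractants read by Ccr2. Ccl2 had 0.731 to 1.09 CPM in KO and 0.399 to 1.81 in WT (log2 -0.26, adjusted p = 0.701). Ccl7 had 0.562 to 1.43 CPM in KO and 0.317 to 1.36 in WT (log2 0.12, adjusted p = 0.880). Ccl12 had 0.677 to 1.16 CPM in KO and 0.0412 to 1.15 in WT (log2 1.04, SE 0.52, adjusted p = 0.210). All 3 overlapped between the groups. Without WT replicate 3 Ccl12 was called higher (adjusted p = 0.0246). Without WT replicates 1 and 3 both Ccl12 (higher, 0.00263) and Ccl2 (lower, 0.0404) were called, as they were with limma-voom (0.00225 and 0.0490). The libraries left out were the highest WT libraries for Ccl12 and the lowest for Ccl2, so the calls without them follow from that choice. Ccl8, a further monocyte chemokine of this cluster, had 2.81 to 4.07 CPM in KO and 1.1 to 5.09 in WT (log2 0.41, adjusted p = 0.462). Without WT replicate 2, its highest WT library, Ccl8 was called higher (adjusted p = 0.0390), which follows from that choice.

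The T cell attractant Ccl5 had 0.592 to 1.16 CPM in KO and 0.0453 to 0.798 in WT (log2 1.2, SE 0.44, adjusted p = 0.0885). Ccl28, a mucosal ligand of Ccr10, had 0.695 to 1.55 CPM in KO and 0.0823 to 0.898 in WT (log2 1.24, SE 0.49, adjusted p = 0.118). Both estimates were above those of the called ligands but had wide intervals, with folds of 1.19 to 4.44 and 1.12 to 4.98. Without WT replicate 3, the highest WT library for each, both were called higher (adjusted p = 0.0277 and 0.0342), which follows from that choice. Ccl24, another eosinophil attractant, had 1.33 to 2.86 CPM in KO and 1.67 to 2.05 in WT (log2 0.32, adjusted p = 0.334). Ccl25, the ligand of Ccr9, had 2.33 to 3.48 CPM in KO and 2.51 to 4.39 in WT (log2 -0.17, adjusted p = 0.548), and 204 of its 7445 exon bases overlap Elavl1. Elavl1, on the opposite strand, had 1897 to 2086 counts in KO and 1853 to 2185 in WT (log2 -0.23, adjusted p = 0.0320). Ccl25 had 63 to 93 and 54 to 97 counts, and the part of the overlap in them was not tested. Ccl19, a ligand of Ccr7, had 0.798 to 1.72 CPM in KO and 0.0499 to 1.97 in WT (log2 -0.07, adjusted p = 0.948), on a row whose scaffold copy and pseudogenes may share its reads.

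**Figure D4:**
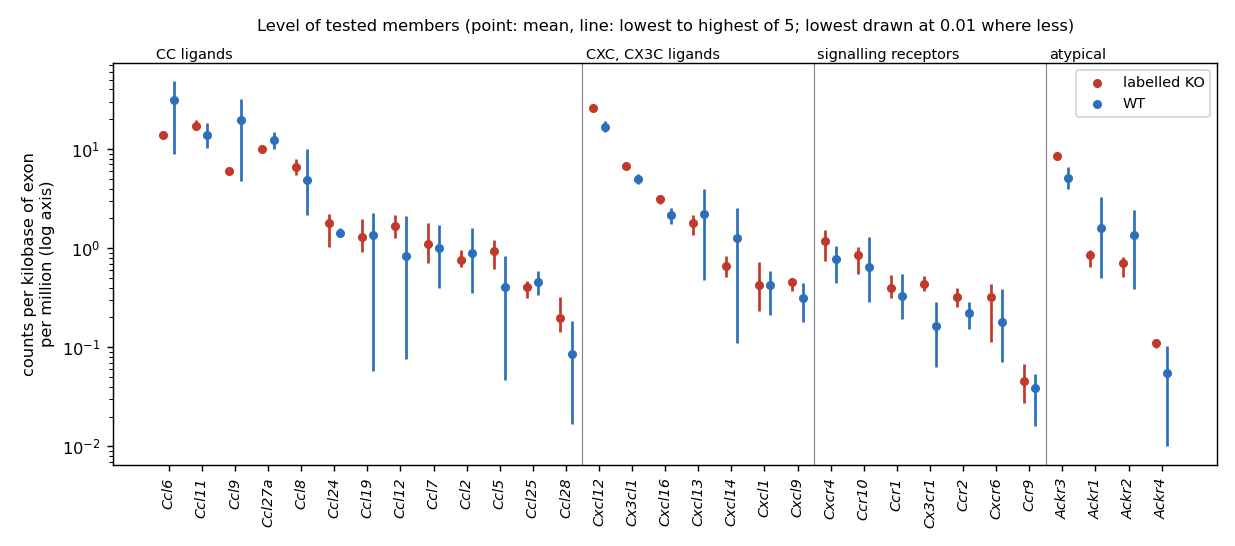
Level of 31 of the 32 tested members in CPM per kilobase of exon (log axis), the mean as a point and the lowest to highest of 5 libraries as a line, ordered within each role. Signalling receptors lie at or below 1.51, while the means of Cxcl12, Ccl6, Ccl11 and Ccl27a exceed 10 in each group.

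Of the 8 tested signalling receptors, whose median log2 difference was 0.57, 1 was called. Cx3cr1 (ENSMUSG00000052336, chromosome 9, 119901616 to 120069879, minus strand, protein coding), the receptor of Cx3cl1 on monocytes and macrophages, had 1.91, 1.77, 1.69, 2.38 and 2.03 CPM in KO and 1.18, 0.556, 1.30, 0.288 and 0.371 CPM in WT. WT replicates 1 and 3 were the highest of the WT libraries, the reverse of their place for Ccl6. Counts were 45 to 65 in KO and 7 to 26 in WT. The fold was 2.67 (95% interval 1.57 to 4.54; log2 1.42, SE 0.35, adjusted p = 0.0203), and with KO as 1 sample 2.67 (0.899 to 7.93; adjusted p = 0.999). Without KO replicate 4 or 5 the adjusted p was 0.0558 or 0.0510, so the call was lost.

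Cxcr4, the signalling receptor of Cxcl12, was the most abundant of the receptors that signal, at 1.17 CPM per kilobase in KO and 0.776 in WT. It had 1.36, 2.14, 2.73, 2.23 and 2.15 CPM in KO and 1.45, 1.88, 0.798, 1.03 and 1.86 CPM in WT. KO replicate 1 lay inside the WT range (log2 0.59, SE 0.26, adjusted p = 0.149). Ccr10 had 1.80, 0.940, 1.39, 1.61 and 1.66 CPM in KO and 0.498, 0.641, 1.1, 2.22 and 1.07 CPM in WT (log2 0.41, adjusted p = 0.483). Ccr1 had 1.52, 1.17, 0.899, 1.06 and 1.04 CPM in KO and 0.544, 1.54, 0.848, 0.947 and 0.836 CPM in WT (log2 0.26, adjusted p = 0.561). The groups overlapped for all 3.

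The remaining signalling receptors described here were not called by edgeR. Ccr2 had 1.72 to 2.67 CPM in KO and 1.04 to 1.93 in WT (log2 0.54, SE 0.20, adjusted p = 0.0966). Cxcr6, the receptor of Cxcl16, had 0.219 to 0.838 CPM in KO and 0.136 to 0.749 in WT (log2 0.85, adjusted p = 0.253). Neither passed the threshold. Ccr9 had 0.279 to 0.703 CPM in KO and 0.165 to 0.557 in WT (log2 0.25, adjusted p = 0.681), and its exons overlap other annotated genes.

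Among the atypical receptors, edgeR called Ackr3 and not its 3 relatives, whereas limma-voom also called Ackr1 and Ackr2 lower and Ackr4 higher (adjusted p = 0.000950, 0.00307 and 0.0179). Ackr3 (formerly Cxcr7; ENSMUSG00000044337, chromosome 1, 90203980 to 90216751, plus strand, protein coding) takes up Cxcl12. It had 30.9, 26, 29.6, 30.6 and 26.3 CPM in KO and 16.1, 14.1, 13.4, 22 and 20.2 CPM in WT. The groups did not overlap, and WT replicates 4 and 5 were nearest to KO. The fold was 1.67 (95% interval 1.37 to 2.04; log2 0.74, SE 0.13, adjusted p = 0.00463), and with KO as 1 sample 1.67 (1.09 to 2.56; unadjusted p = 0.0255, adjusted p = 0.999). Per length, Ackr3 at 8.56 in KO and 5.12 in WT was above Cxcr4, the other receptor of Cxcl12, in each group.

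Ackr1, which carries chemokines across venular endothelium and on red cells, had 1.36, 1.24, 1.24, 0.914 and 1.18 CPM in KO and 0.906, 2.01, 0.699, 4.57 and 3.16 CPM in WT (log2 -0.94, SE 0.44, adjusted p = 0.179). Ackr2, which scavenges inflammatory CC chemokines in lymphatic endothelium, had 2.55, 1.88, 2.43, 2.56 and 1.59 CPM in KO and 1.72, 4.70, 1.2, 7.66 and 5.85 CPM in WT (log2 -0.95, SE 0.44, adjusted p = 0.178). For both, as for Ccl6, WT replicates 1 and 3 were the lowest WT libraries. Ackr2 was called lower without WT replicate 3 (adjusted p = 0.0431), and Ackr1 and Ackr2 without WT replicates 1 and 3 (0.00141 and 0.000279). Those calls follow from leaving out the lowest WT libraries and are no added support. Ackr4, which removes Ccl19, Ccl21 and Ccl25, had 0.524 to 0.658 CPM in KO and 0 to 0.556 in WT (log2 0.99, SE 0.47, adjusted p = 0.184). Of the Ackr1 exon bases 361 of 1405 overlap Cadm3 on the same strand, and 479 of the 5380 of Ackr4 overlap Acad11. Cadm3 had 163 to 206 counts in KO and 81 to 303 in WT, against 25 to 34 and 14 to 111 of Ackr1. Acad11 had 366 to 411 and 199 to 451 counts, against 14 to 18 and 0 to 13 of Ackr4. The part of these overlaps was not tested.

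WT replicates 1 and 3 were the lowest of the 5 WT libraries for 10 of the 32 tested members, where this was so for 23.3% of all tested genes. The 10 were Ccl2, Ccl6, Ccl7, Ccl8, Ccl9, Ccl19, Cxcl1, Cxcl14, Ackr1 and Ackr2, a group picked out after its values were seen. Endothelial markers, 6 genes summed, had 209, 512, 146, 614 and 506 CPM from WT replicate 1 to replicate 5 and 267 to 276 in KO, and edgeR called none of the 6 (1 at an unadjusted p under 0.05). Lymphatic endothelial markers (5 genes, 0 called by edgeR, 2 at an unadjusted p under 0.05) had 25, 48.0, 21.4, 45.2 and 41.6 CPM in WT and 33.1 to 38.5 in KO. Macrophage markers (9 genes) had 153, 328, 175, 242 and 241 CPM in WT. Adipocyte markers (5 genes, 0 called by edgeR, 0 at an unadjusted p under 0.05) had 135, 125, 67.7, 678 and 479 CPM in WT and 201 to 216 in KO. In these 4 marker lists WT replicate 3 was among the 2 lowest WT libraries, as it was for these members. WT replicates 1 and 3 were also lowest for the fibroblast and plasma cell lists. Other lists went the other way. Smooth muscle markers summed to 38742, 30678, 38692, 25210 and 28007 CPM in WT replicates 1 to 5. WT replicate 3 was the highest WT library for the red cell (327 CPM), platelet (12.4) and B cell (3.19) lists. The mitochondrial share was highest in WT replicates 1 and 3. The part of these values in the member differences was not tested.

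**Figure D5:**
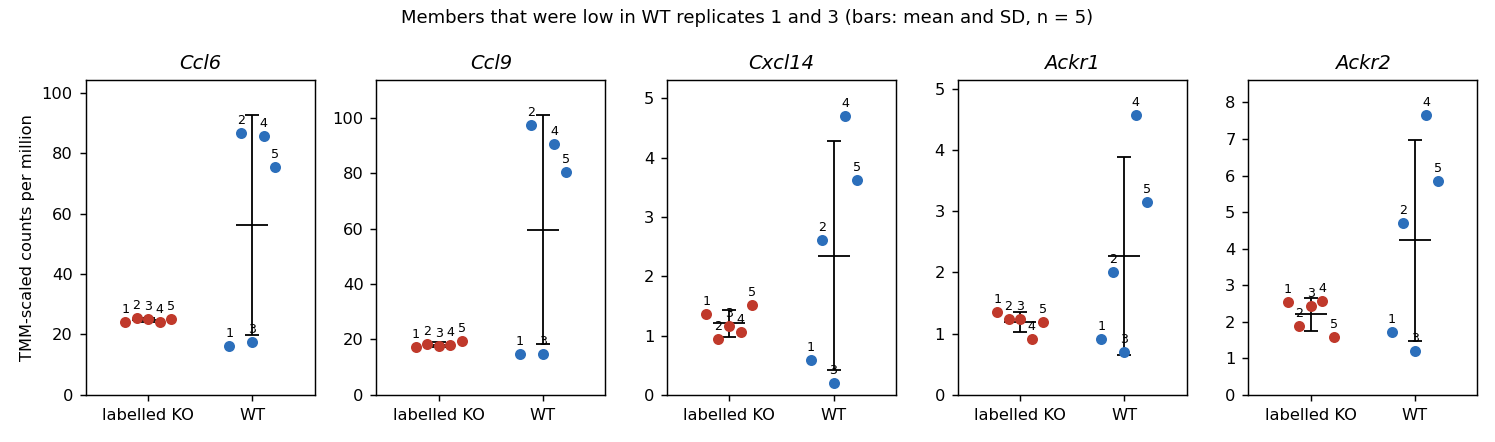
TMM-scaled CPM of 5 members for which WT replicates 1 and 3 were the lowest WT libraries, one point per library with its replicate number, and the mean and SD of 5. For Ccl6, WT replicates 1 and 3 sit at 16.1 and 17.4 CPM and the other WT libraries at 75.5 to 86.8.

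Marker lists of other cell types were read in the same fits. Of 9 macrophage markers 2 were called higher, Adgre1 (log2 0.86, adjusted p = 0.00203) and Csf1r (log2 0.65, adjusted p = 0.00211), while 6 of the 9 estimates were negative and the median log2 was -0.01. The macrophage sum of 233 to 240 CPM in KO lay inside the WT range of 153 to 328. Of 8 T cell markers 2 were called higher (median log2 0.81), and they summed to 6.63 to 7.68 CPM in KO and 2.37 to 7.10 in WT, with Cd8b1 and Trac at 0 in some libraries. Fibroblast markers gave 3 of 6 higher (median log2 0.20), and they summed to 2578.5 to 2624.9 CPM in KO and 1986.3 to 2323.6 in WT. All 5 of 5 tested plasma cell markers were higher, with 312 to 321 CPM in KO and 28.9 to 46.8 in WT. Both tested thymus markers, Dntt and Rag1, were called higher, with the other 4 untested and the list at 1.28 to 2.59 CPM in KO and 0.247 to 1.33 in WT. One call each came from the B cell list (Cd79b, higher, of 3 tested), the mesothelium list (Upk3b, higher, of 2 tested) and the smooth muscle list (lower, of 6). All 5 red cell markers were lower, with 19.2 to 21.3 CPM in KO and 65.7 to 327 in WT. Of 5 tested dendritic cell markers, all with positive estimates (median log2 0.50), 0 were called, and neither was the 1 tested neutrophil marker. No lymph node or NK cell marker had enough counts to be tested. With KO as 1 sample, 1 plasma cell marker, Ighm, was called (adjusted p = 0.0413) and no marker of the macrophage, T cell, fibroblast, thymus, B cell, mesothelium, smooth muscle or red cell lists was, with 2, 2, 1, 1, 1, 1, 0 and 4 at an unadjusted p under 0.05. Their part in the calls of Cxcl12, Cx3cr1, Cx3cl1, Cxcl16 and Ackr3 was not tested.

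Genes beside the family were read from lists chosen for their roles. Over all tested genes, edgeR called 6.84% higher and 7.43% lower. Of 24 genes of receptor signalling, all tested, edgeR called 4 higher and 2 lower (median log2 0.14). DESeq2 called 6 higher and 2 lower, and limma-voom 7 and 5. Over all tested genes, those 2 tools called 18.9% and 41.2% in either direction. Rac2 (log2 0.88, adjusted p = 0.00366) and Dock2 (log2 0.88, adjusted p = 0.00575), which drive leukocyte migration, rose from 1.94 to 3.57 and from 1.81 to 3.34 CPM in the mean. Grk5, a receptor kinase, fell from 95.3 to 63.1 CPM (log2 -0.59, adjusted p = 0.00866). The other edgeR calls, named after their values were seen, were Rgs1 and Prex1, higher, and Elmo1, lower.

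Of 11 genes of processing and presentation, edgeR called 3 higher and 1 lower (median log2 0.16). DESeq2 called 4 higher and 2 lower, and limma-voom 5 and 2. Sdc1, a heparan sulfate proteoglycan that is also in the plasma cell list, had 39.6 ± 1.69 CPM in KO and 22.3 ± 2.87 in WT (log2 0.82, adjusted p = 0.000158). Sdc4, another, had 236 ± 5.29 and 300 ± 29.2 CPM (log2 -0.35, adjusted p = 0.00598). Mmp2, a protease that can cleave Cxcl12, had 122 ± 2.71 and 97.2 ± 10.5 CPM (log2 0.33, adjusted p = 0.00890), and Mmp9 was the third called higher. Adam10 and Adam17, named for their role as the sheddases of Cx3cl1 and Cxcl16, had log2 differences of 0.07 (adjusted p = 0.597) and -0.05 (adjusted p = 0.547).

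No inducer of chemokines was called higher by edgeR, where 6.84% of all tested genes were. With 12 and 9 tested genes in the 2 inducer lists, 0 calls lies near that share. Of 12 tested genes in the NF-kappaB list, 0 were called higher (0 also at an unadjusted p under 0.05, with DESeq2 and with limma-voom). Called lower were 2 (median log2 -0.20), against 6 at an unadjusted p under 0.05, 3 with DESeq2 and 7 with limma-voom. Of all 15710 tested genes, edgeR called 7.43% lower, and 2552 had an unadjusted p under 0.05 in that direction. The 2 inducers called lower by edgeR were Nfkbiz (log2 -0.50, adjusted p = 0.00533) and Rela (log2 -0.23, adjusted p = 0.0443). Tnfrsf1a was not called (log2 -0.37, adjusted p = 0.0780). The cytokines Tnf, Il1a, Il1b and Il6 had too few counts to be tested, with at most 10 in any library. Of 9 tested interferon genes none was called by edgeR, with 2 at an unadjusted p under 0.05 (median log2 -0.01). DESeq2 called 1 higher, and limma-voom 2 higher and 2 lower, and the smallest p belonged to Stat2 (log2 -0.17), Ifngr2 (0.23) and Irf1 (0.15).

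Of 8 tested chemokine-like genes outside the name rule, edgeR called 1 higher and 2 lower (median log2 0.04). DESeq2 called 1 higher and 3 lower, and limma-voom 3 and 3. Cd74, a receptor of Mif and the invariant chain of antigen presentation, had 58.3 ± 0.547 CPM in KO and 38.8 ± 1.99 in WT (log2 0.59, adjusted p = 2.57e-05). Mif had 64.7 ± 2.61 and 75.3 ± 7.62 CPM (log2 -0.22, adjusted p = 0.0468). Ppbp, a platelet chemokine, had 0.180 ± 0.0860 and 2.90 ± 1.76 CPM (log2 -3.96, adjusted p = 0.000632), while edgeR called none of the 3 tested platelet markers (0 at an unadjusted p under 0.05), which summed with 2 untested ones to 4.99 to 7.10 CPM in KO and 4.06 to 12.4 in WT. With KO as 1 sample, edgeR called no gene of these 5 lists, with 0 to 2 of each at an unadjusted p under 0.05, and DESeq2 called 2, both in the chemokine-like list.

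The 28 untested rows had at most 24 counts in any library. For the CC ligands, Ccl3 had 0 to 8 counts, Ccl4 0 to 9, Ccl17 0 to 5 and Ccl22 1 to 10. Ccl1 was at 0 in all but 1 library, and Ccl26 and Ccl27b had at most 4. Ccl21a had 1 to 10 counts and Ccl21c 0 to 4, and Ccl19-ps1 and Ccl19-ps3 had 2 to 17 and 1 to 24. The scaffold copies of Ccl19 and Ccl27a had 0 to 11. Among the CXC ligands, Cxcl10 had 1 to 16 counts, Cxcl2 0 to 6 and Cxcl5 0 to 7, while Cxcl3, Cxcl11 and Cxcl17 had at most 3. The receptor Cxcr3, which reads Cxcl9 and Cxcl10, had 8 to 20 counts in KO and 0 to 10 in WT. Ccr4 and Ccr7 had at most 9 and 8 counts, Cxcr5 1 to 7, Ccr6 at most 4, and Ccr3, Ccr8 and Cxcr2 at most 2. In the alternative with no low-count filter, which tested all 60 rows, none of these 28 was called.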

How the data were processed

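RNA was sequenced from 10 aorta libraries, grouped as 5 KO and 5 WT by their titles. The authors deposited raw read counts for each gene. In the submitters' processing notes, Bowtie 0.12.2, mm8 and mm9 appear without a stated role, although the Ensembl gene identifiers date from GRCm38. Which tool, annotation and strand setting produced the counts is not given in the sources used here. Positions and exon lengths come from GENCODE M21 (GRCm38), which matched 35562 of 35667 genes.

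Counts were fitted over all genes with edgeR 4.0.16 under R 4.3.3 (quasi-likelihood F test; TMM, robust, filterByExpr with minimum count 10 and minimum total 15), with Benjamini-Hochberg adjustment over all 15710 tested genes and a threshold of 0.05. Every adjusted p is from edgeR unless another tool is named. The same fit was made with KO counts summed to 1 sample. CPM are TMM-scaled, and intervals are 95%. Alternatives used limma 3.58.1, DESeq2 1.42.0, other filters and left-out libraries. Values per library were given for called members and the 3 most abundant per length in each role, and up to 3 genes of smallest p per pathway list. The members and lists were chosen with earlier results of these data known. Of the tested members, 1 is not reported here by name, though it is part of the counts and medians.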

Additional observations from a re-analysis of the deposited data

Results flagged for a closer look

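In groups of 5 libraries, a library was marked where its gap to the nearest other library was large beside the range of its group (Dixon's 95% value). Of 64 groups checked, 3 were marked, and chance marks about 1 in 20. Cxcl12 in KO replicate 3 had 207.09 CPM, below the other 4 libraries labelled KO. Ccl27a in KO replicate 3 had 25.882 CPM, above the others. Ccl28 in KO replicate 5 had 1.5534 CPM, above the others.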

How the results depend on the processing

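Cxcl12 and Ackr3 were called higher in all 18 alternatives to the 5 against 5 comparison. Cx3cl1 and Cxcl16 were called in 17 and lost the call with a fold of 1.2 in the test (adjusted p = 0.0770 and 0.117). Cx3cr1 was called in 14, and lost the call with that fold, with a replicate block and without KO replicate 4 or 5 (adjusted p up to 0.0876). The 5 members called higher became 12 with limma-voom, 2 with a fold of 1.2 and 8 without WT replicates 1 and 3. The calls over all genes moved too. In either direction they were 14.3% in the main 5 against 5 comparison and 41.2% with limma-voom. They were 1.9% with that fold and 27.2% without WT replicates 1 and 3. Leaving out 1 library gave 4 to 8, the 8 without WT replicate 3. Of all genes, 8.1% to 16.8% were then called in either direction, with 16.4% without WT replicate 3. The 0 called lower became 1 with a mean of at least 1 CPM, 1 with DESeq2, 7 with limma-voom and 6 without WT replicates 1 and 3. With that CPM filter and with DESeq2, 16.1% and 18.9% of all genes were called in either direction. Leaving out 1 library gave 0 to 3, with 2 without WT replicate 1, 3 without WT replicate 3 and 1 without WT replicate 4. With KO as 1 sample, the 0 called higher became 2 with no low-count filter (Cxcl12 and Ackr3), and the 0 called lower became 2 without WT replicates 1 and 3 (Ccl6 and Ccl9). The cause of these shifts was not tested.

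Replicate numbers did not pair the libraries: same-number correlations ran from -0.0397 to 0.0424, and 2 of 5 numbers matched their own best. The replicate block called 1319 genes in place of 2242, and 4 members in place of 5.

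Some estimates changed sign, none of them called in the setting where its sign changed. Leaving out 1 library gave ranges of -0.36 to 0.21 for Ccl19, -0.45 to 0.062 for Ccl2, -0.12 to 0.40 for Ccl7 and -0.28 to 0.15 for Cxcl1. The replicate block gave 0.022 for Ccl19. Without WT replicates 1 and 3, Ccl7 became -0.28 and Cxcl1 -0.38. With limma-voom, Ccl25 became 0.11, Ccl7 -0.43, Cxcl1 -0.44 and Ccr9 -0.013. The causes were not tested. Depth limited the 28 rows with at most 24 counts.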
